A study of Mus musculus with 2 samples.

Results

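The skin's alarmins and antimicrobial proteins were followed through 10 genes in dorsal skin of newborn mice that lack Sdr9c7: S100a8, S100a9, Slpi, Wfdc12, Defb1, Defb6, Camp, Ltf, Lcn2 and Chi3l1, which the array calls Chil1. They were taken by name, as every non-control probe that the scanner files give to one of these 10 genes. This gave 11 probes of 39417, with 2 for Camp and 1 for each of the other 9 genes, and each probe was printed as 1 spot per array. All 10 genes were measured, among 22719 measured gene names. A gene counts as measured if at least 1 of its probes was, on each array, unsaturated and well above background.

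The study set Sdr9c7-/- (knockout) skin against wild type skin at P0, the day of birth, both on the C57BL/6J background. Each genotype had 1 array, hybridised with Cy3-labelled RNA pooled in equal amounts from the skins of 5 animals. The 2 arrays lay on 1 slide. The array and its labelling cannot be told apart from genotype, no test was possible, and no p-value is given. The allele is named only as a knockout in the labels, without the deleted part or a driver. The design text speaks of epidermis, while the labels give dissected dorsal skin. All 5 muscle and all 5 adipocyte markers were measured beside all 7 keratinocyte markers, so the samples are described here as skin.

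Alarmins are proteins that signal danger to the immune system when cells are stressed or damaged, and antimicrobial proteins kill microbes or starve them of metals. Keratinocytes make many of them at a low level, and are known to raise several when the barrier is broken, the skin is wounded, or interleukin-17, interleukin-22, interleukin-1 or tumour necrosis factor act on them. Several are also stored in neutrophil granules, and dermal fat cells are a known source of the mouse cathelicidin. Sdr9c7 encodes a short-chain dehydrogenase that acts on the acylceramides of the skin barrier.

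The array reads each gene through a probe of 60 bases. For the genes on which the results turn, the first 30 bases of the probe are shown with their position, all in lower case since no base within them is singled out.
Slpi (mm9 chr2:164179879-164179908, minus strand): ttactgttttaccactaacatctccttttg
Defb6 (mm9 chr8:19228090-19228119, plus strand): ctgccgcagaaaatagataaaaggaccaag
S100a8 (mm9 chr3:90473778-90473807, plus strand): cttgttcagagaattggacatcaatagtga
S100a9 (mm9 chr3:90496603-90496632, minus strand): gtctaaagggaatggcttactcaatggcct
Chil1 (mm9 chr1:136086448-136086477, plus strand): ggacaccacttggatcaagtaggcaaatat

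Both Camp probes read the same transcript, with starts at transcript positions 519 and 529. The first lies at mm9 chr9:109749911-109749970 on the minus strand. The second is not placed on mm9 in the scanner files, so they are shown where they overlap, with the bases that differ in capitals.
Camp, first probe: cagccAgagTagtaggcc
Camp, second probe: cagccGgagCagtaggcc
Counting from 1 at the 5′ end of the second probe, the differences are A6G and T10C (first probe's base first), the only 2 within the 50 bases that both probes cover. Of the other 9 genes, S100a8 and S100a9 lie together on chromosome 3, Slpi and Wfdc12 on chromosome 2, and Defb1 and Defb6 on chromosome 8. Ltf, like Camp, lies on chromosome 9. Lcn2 lies elsewhere on chromosome 2, and Chil1 on chromosome 1. Exon or UTR positions were not assigned, since no annotation on mm9 was used here.

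Values below are the processed intensity divided by the array's 75th percentile over all probes, called the scaled signal, so that 1 equals that percentile. Differences are log2 scaled signal of the knockout minus that of the wild type. Because probes differ in how well they bind, a level is compared only with the same probe on the other array. The targeted gene, Sdr9c7, had a scaled signal of 0.0479 in the knockout and 0.324 in the wild type, a log2 difference of −2.76. Its spot lay in rows of the slide where dim spots scattered, and the difference was −2.05 under the normexp correction with offset described below. The labels do not give the deleted part, so the probe may or may not lie within it. The share of probes well above background was 76.8% for the knockout and 74.9% for the wild type.

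The median of the group stood level while single genes differed. In the knockout, Slpi and Defb6 were higher by at least 2-fold, that is 2 of the 10, where 0.528% of all measured genes were. Under normexp, a background correction run here with an offset of 50 added to every signal, neither was; with an offset of 0 Slpi was and Defb6 was not. No gene of the group was at least 2-fold lower, against 1.36% of all measured genes. The median log2 difference over the 10 was 0.00, beside −0.04 over all measured genes, with 5 above 0 and 5 below 0. The 10 genes were proposed with these values known, so their count is a description and not a sample of a wider class. Of the 10, 7 were within 1.5-fold, against 91.6% of all measured genes.

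**Figure D1:**
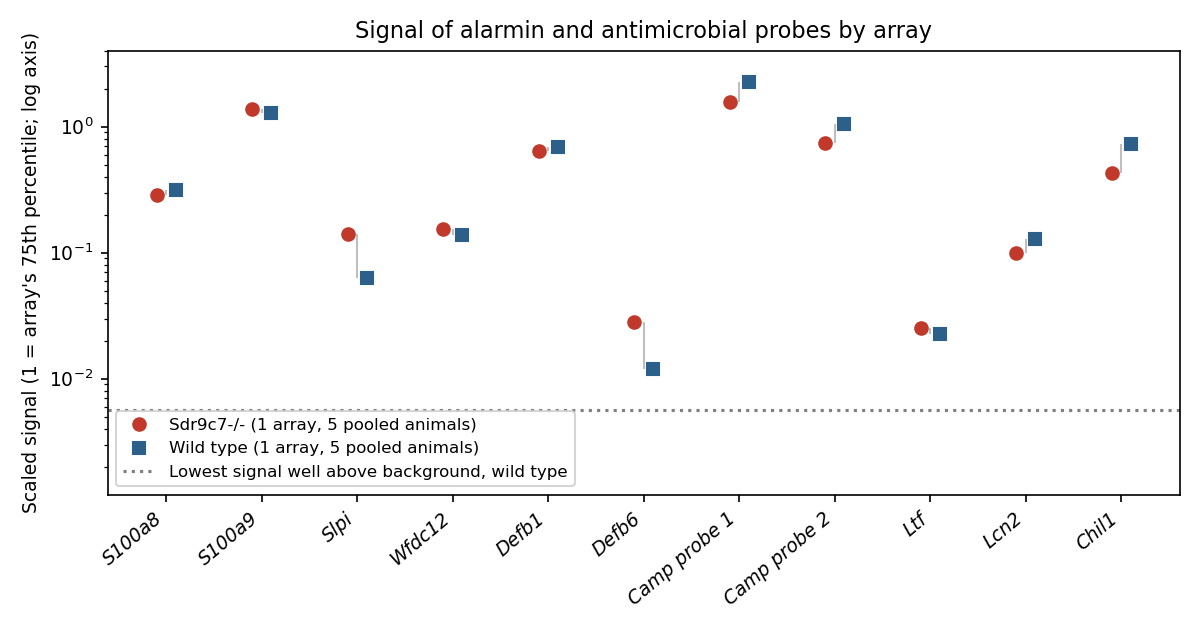
Scaled signal (vertical, log axis, 1 = the array's 75th percentile) of the 11 probes, with the Sdr9c7-/- array as red circles left of the wild type array as blue squares, 1 array each. The dotted line is the wild type array's lowest signal well above background (0.00563). Only points of the same probe are comparable; Slpi and Defb6 are higher on the knockout array, and Camp, Lcn2 and Chil1 are lower.

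Each difference is read against technical error. The scanner software gives every spot an error estimate, and for the difference of 1 probe between the arrays it came to 0.20 to 0.27 on the log2 scale. Among 320 probes printed at least 8 times, the SD of the difference between spots had a median of 0.058. It was 0.15 for the 56 of them with a scaled signal under 0.05. Probes of the same gene differed more, with a pooled SD of 0.25 over 5176 genes. None of these covers the spread between animals, litters or dissections, which 1 pool per genotype does not show.

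The calgranulins S100a8 and S100a9 form the calcium- and zinc-binding heterodimer calprotectin, a marker of stressed epidermis and of neutrophils. S100a8 had a scaled signal of 0.288 in the knockout and 0.312 in the wild type, a difference of −0.11. S100a9 had 1.38 in the knockout and 1.28 in the wild type, a difference of 0.11. The partners thus lay on opposite sides of 0, and both differences were smaller than the scanner error of 0.20. Neither gene was detectably different at this precision. A difference of 2-fold, as seen for Slpi, would have been several times that error.

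The other S100 genes were as level. All 15 on the array were measured, none was 2-fold apart, and their median was −0.01, which ranged from −0.10 under normexp to 0.03 under median scaling. The highest were S100z at 0.25 and S100a7a at 0.21, the mouse relative of human psoriasin, which was dim at 0.0156 in the knockout and 0.0135 in the wild type. The lowest were S100g, a calcium-buffering calbindin, at −0.77 and S100a3, an S100 protein of the hair cuticle, at −0.60. S100g was dim, with 0.0073 in the knockout and 0.0124 in the wild type, and was at −0.33 after normexp. S100a3 had 2.44 in the knockout and 3.70 in the wild type, and was at −0.54 after normexp. The hair keratin Krt31, a marker of the hair cortex, was at −0.87, with 0.651 in the knockout and 1.19 in the wild type. It was the lowest of the 5 hair follicle markers, whose median was −0.44 and whose highest value was 0.18. The part of hair follicles in the S100a3 value was not tested. Of the 10 measured genes nearest to S100a9, 5 on either side, none was 2-fold apart, with a range from −0.80 for Lelp1 to 0.21.

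Among Slpi and the measured Wfdc genes, all of the whey acidic protein family, Slpi alone was at least 2-fold higher in the knockout. Slpi encodes the secretory leukocyte protease inhibitor, which blocks neutrophil elastase and cathepsin G and also kills microbes. Its processed intensity was 270.2 in the knockout and 110.5 in the wild type, and its scaled signal was 0.141 in the knockout and 0.0633 in the wild type. The scanner's error was 0.21, and the log2 difference of 1.15 (2.22-fold) was more than 5 times as large and placed Slpi 85th from the top of 22719 genes. Among the 4544 genes of its class by mean signal, 0.682% were at least 2-fold higher. The spot lay in an even part of the slide: 126 detected spots within 6 rows and columns had a median difference of −0.12 and an SD of 0.30. Normexp models the raw spot and local background signals in place of the processed intensity, and its offset of 50 compresses dim differences. With that offset the Slpi difference was 0.86, or under 2-fold, and with an offset of 0 it was 1.1, past 2-fold. Adding 50 to the processed intensity, with no other change, also gave 0.86.

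Wfdc12, a relative of Slpi with an antibacterial whey acidic domain, is among the 5 measured genes nearest to it on that side of chromosome 2. It had 0.154 in the knockout and 0.138 in the wild type, a difference of 0.16 that was within the scanner error of 0.20. The 10 measured genes nearest to Slpi ranged from −0.35 for Pabpc1l to 0.16 for Wfdc12 itself, so that Slpi was the 1 gene of its neighbourhood past 2-fold. Of 17 other Wfdc genes on the array 11 were measured, with a median of −0.16 and 1 at least 2-fold lower. That was Wfdc3 at −1.07, with 0.0122 in the knockout and 0.0256 in the wild type, and −0.50 after normexp. Wfdc1 followed at −0.78, and Wfdc6b and Wfdc6a were highest at 0.35 and 0.28. Wfdc16 was well above background in the wild type alone, through 1 of its 2 probes, at a dim 0.0176 against 0.00424 in the knockout. Set against the knockout array's lowest signal well above background, it was at least 4.12-fold lower in the knockout. That bound takes no account of spot error.

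Wfdc21, named here after its values were seen, shows how finely a bright gene of this family was measured. Its probe gave 9 usable spots on each array, with log2 differences from −0.39 to −0.27, a mean of −0.34 and an SD of 0.039. The spots of this probe therefore differed far less among themselves than the arrays did. They share the same 2 RNA pools and so are not replicates of genotype.

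The proteases that Slpi blocks, and related granule and epidermal proteases, did not reach 2-fold. All 8 of the list were measured, with a median of −0.10. Ctsg, cathepsin G, was highest at 0.51, followed by the mast cell chymase Cma1 at 0.20. The lowest were the channel-activating protease Prss8 at −0.33 and the desquamation kallikrein Klk7 at −0.27. Elane, neutrophil elastase, was at −0.19, with 0.120 in the knockout and 0.137 in the wild type.

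Beta-defensins are small cationic peptides that permeabilise microbial membranes. Defb1, the constitutive epithelial form, was level, with 0.639 in the knockout and 0.695 in the wild type, a difference of −0.12 within the scanner error of 0.20. Defb6, known from epithelia and skeletal muscle of the mouse, had the highest difference of the 10 genes at 1.25 (2.38-fold), with a scaled signal of 0.0284 in the knockout and 0.0119 in the wild type. It was 69th from the top of all measured genes. Of the 4544 dimmest genes, to which it belongs, 1.28% were at least 2-fold higher. The processed intensities were 54.6 in the knockout and 20.8 in the wild type, while the raw spot means were 92.9 over a local background of 37 in the knockout and 64.7 over 35.5 in the wild type. After normexp with the offset of 50 the Defb6 difference was 0.29, and with an offset of 0 it was 0.77. Adding 50 to the processed intensity alone gave 0.43. Both the offset and the change of signal thus lowered it below 2-fold.

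The Defb6 spot also lay in rows where dim spots disagreed more between the arrays. In these rows 7.19% of dim detected spots were at least 2-fold apart, against 2.41% in the other rows. The rows were picked by that share, so the contrast follows from the choice. Around the Defb6 spot itself, 130 detected spots of any brightness within 6 rows and columns had a median difference of −0.05 and an SD of 0.40. Of these, 3.85% were at least 2-fold apart. The 5 measured muscle markers were all lower in the knockout, with a median of −0.97. They ran from −1.23 for the creatine kinase Ckm to −0.64 for the myosin light chain Mylpf. Their summed scaled signal was 54.6 in the knockout and 103 in the wild type. The part of muscle in the Defb6 value was not tested. Of 41 other Defb genes on the array, 6 were measured and 30 were not well above background on either array, among them Defb3 and Defb4, the inducible mouse forms. The 6 had a median of −0.23 (−0.01 over the 5 outside the scattering rows), from −0.50 for Defb11 and −0.48 for Defb45 to 0.10 for Defb42 and 0.11 for Defb28, and none was 2-fold apart. Defb14, the mouse relative of human beta-defensin 3, was at −0.47 with 0.155 in the knockout and 0.214 in the wild type, and was named after its value was seen. Of the 5 genes well above background on a single array, Defb26 was at least 2.88-fold lower in the knockout and Defb34 at least 1.39-fold higher. Both were dim, with Defb26 at 0.0123 in the wild type and Defb34 at 0.00784 in the knockout. The Defb34 probe also lay in the scattering rows or a damaged block of the slide.

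**Figure D2:**
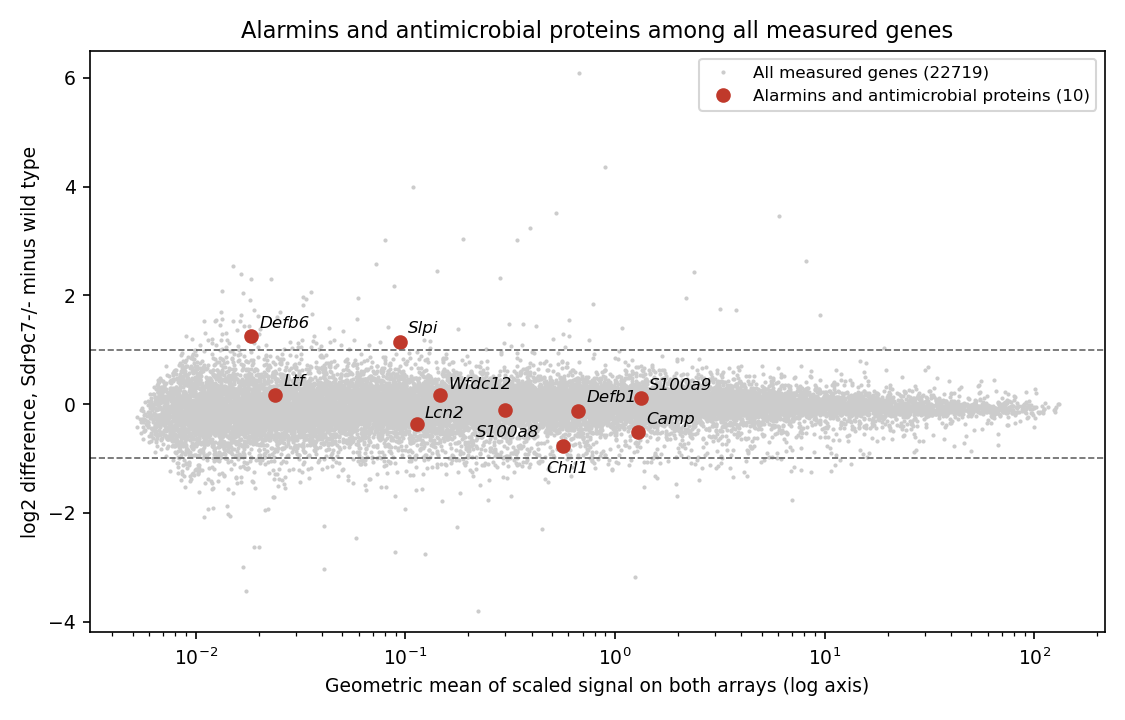
Log2 difference, Sdr9c7-/- minus wild type (vertical), against the geometric mean scaled signal of both arrays (horizontal, log axis) for 22719 measured genes in grey and the 10 alarmin and antimicrobial genes in red, with dashed lines at 2-fold. Slpi at 1.15 and Defb6 at 1.25 lie above the upper line, and Defb6 lies among dim genes whose differences scatter widely.

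Camp encodes the cathelicidin precursor, from which the membrane-lytic peptide CRAMP is cut. The first probe had a scaled signal of 1.57 in the knockout and 2.26 in the wild type. The second had 0.736 in the knockout and 1.04 in the wild type. Their differences were −0.52 and −0.50, so that probes at different places on the slide and with the base differences shown above gave nearly the same value. The gene was 1.43-fold lower in the knockout (−0.51), and 7.75% of measured genes were as low or lower. Spots around the second probe scattered widely, with an SD of 0.97 over 98 neighbours, against 0.29 over 90 neighbours of the first.

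Chil1 encodes the chitinase-like lectin also called YKL-40 in humans and BRP-39 in mice, a secreted protein of macrophages and other cells in inflamed tissue. It was the lowest of the 10, with 0.431 in the knockout and 0.733 in the wild type, a difference of −0.77 (1.70-fold). This was more than 3 times the scanner error of 0.20, and 3.22% of measured genes were as low or lower. Its direction and size changed little with the processing, from −0.77 to −0.72. Of the 10 measured genes nearest to Chil1, Mybph, a myosin-binding protein of muscle, was 2-fold lower at −1.02, and the muscle regulator Myog was at −0.57.

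Lcn2 and Ltf withhold iron from bacteria, Lcn2 by binding bacterial siderophores and Ltf by binding the metal itself. Lcn2 had 0.0996 in the knockout and 0.129 in the wild type, a difference of −0.37 (1.29-fold) that exceeded the scanner error of 0.21. It was at −0.25 after normexp with the offset of 50 and at −0.28 with an offset of 0, both close to that error. Of all measured genes, 13% were as low or lower than Lcn2 under the main setting. Ltf, dim on both arrays, had 0.0254 in the knockout and 0.0225 in the wild type, a difference of 0.17 within the scanner error of 0.23. Ltf was also the 1 gene of the 10 whose sign changed with the processing, to −0.07 after normexp and −0.03 with its offset at 0. Both spots lay in the rows where dim spots scattered.

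**Figure D3:**
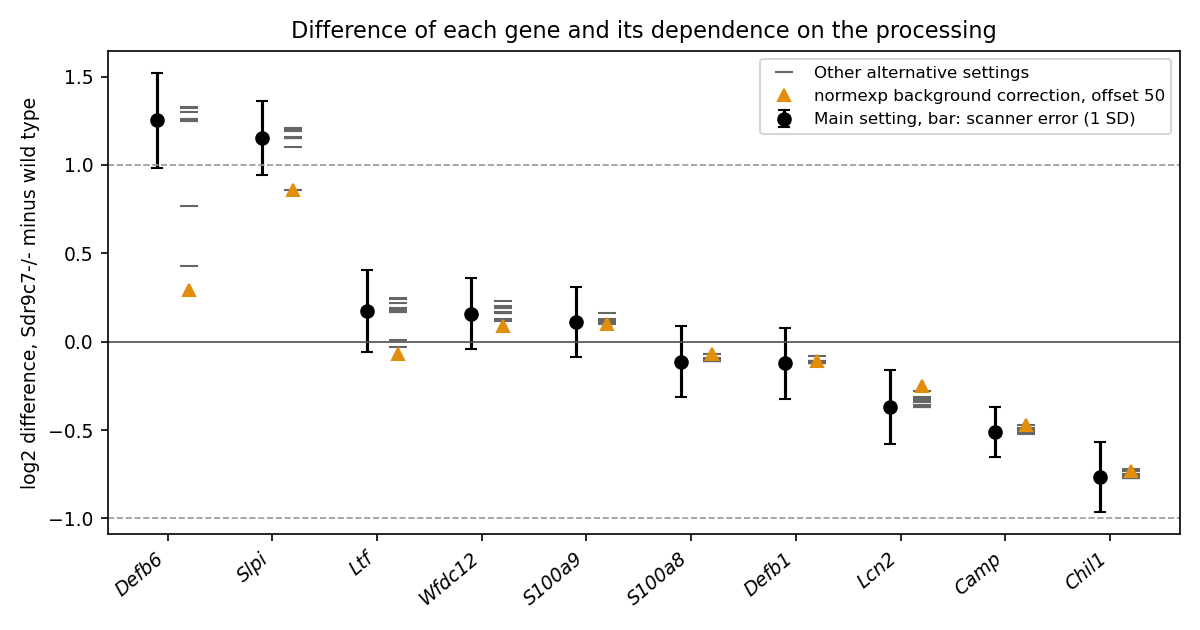
Log2 difference, Sdr9c7-/- minus wild type (vertical), of the 10 genes from highest to lowest. Black points are the main setting with the scanner software's error (1 SD), orange triangles the values after normexp with an offset of 50 and grey dashes the other settings. Dashed lines mark 2-fold. Slpi is at 0.86 and Defb6 at 0.29 under normexp with that offset, while Chil1 and Camp differ little between settings.

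Markers of the cells that can hold these proteins are given beside those values. In such bulk samples, fewer cells of a type and less RNA per cell cannot be told apart. Of 12 neutrophil markers 9 were measured, with a median of −0.03, 3 above 0 and 6 below 0. Their summed scaled signal was 47.6 in the knockout and 47.3 in the wild type. Nearly all of it came from the 1 probe of Csf3r, at 46.6 in the knockout and 46.5 in the wild type. The sum therefore says little about the other markers. Ctsg was highest at 0.51, followed by Mmp8 at 0.45, and Cxcr2 was lowest at −0.27, followed by Elane at −0.19. Mmp8 was dim, with 0.0237 in the knockout and 0.0174 in the wild type. Cxcr2 was dimmer, with 0.00515 in the knockout and 0.00623 in the wild type. The neutrophil granule gene Ngp was well above background in the knockout alone, at 0.00938 against 0.00486 in the wild type, or at least 1.67-fold higher, and Mmp9 was not well above background on either array. The probes of Ngp and Mmp8 lay in the scattering rows or a damaged block of the slide, as did a probe of Adgre1 and of Csf1r. Of the 10 genes, several of which encode granule proteins, Camp, Lcn2 and Chil1 were lower in the knockout. Slpi and Defb6 were higher, and the others were within their scanner error. The 6 macrophage markers had a median of 0.07, with Cd163 at 0.43, Adgre1 at 0.25, Csf1r at −0.05 and Lyz2 at −0.07, and summed to 5.77 in the knockout and 5.49 in the wild type.

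The adipocyte markers were all lower in the knockout, with a median of −0.53 over 5, from −1.76 for the adipokine Cfd and −0.89 for Adipoq to −0.45 for Lep and −0.34 for Fabp4. They summed to 47.6 in the knockout and 72.4 in the wild type. Camp, Lcn2 and Chil1, the 3 genes of the group that were lower by more than their scanner error, thus moved in the same direction as the fat and muscle markers, whose part in those values was not tested. Keratinocyte markers were level, with a median of 0.03 over 7 and sums of 360 in the knockout and 367 in the wild type. They ran from Krt2 at −0.69 and Lor at −0.15 to Krt5 at 0.14 and Ivl at 0.26. Krt2 was dim, with 0.0439 in the knockout and 0.0710 in the wild type. The 5 hair follicle markers had a median of −0.44, with Krt85 at −0.49, Krt71 at −0.37 and Krt17 at 0.18. The 3 erythroid markers had a median of 0.52, with Alas2 at 0.63, Hbb-b1 at 0.52 and Hba-a1 at 0.32. A probe of each of Krt2, Ivl, Fabp4, Krt71, Krt85 and Alas2 lay in the scattering rows or a damaged block of the slide.

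**Figure D4:**
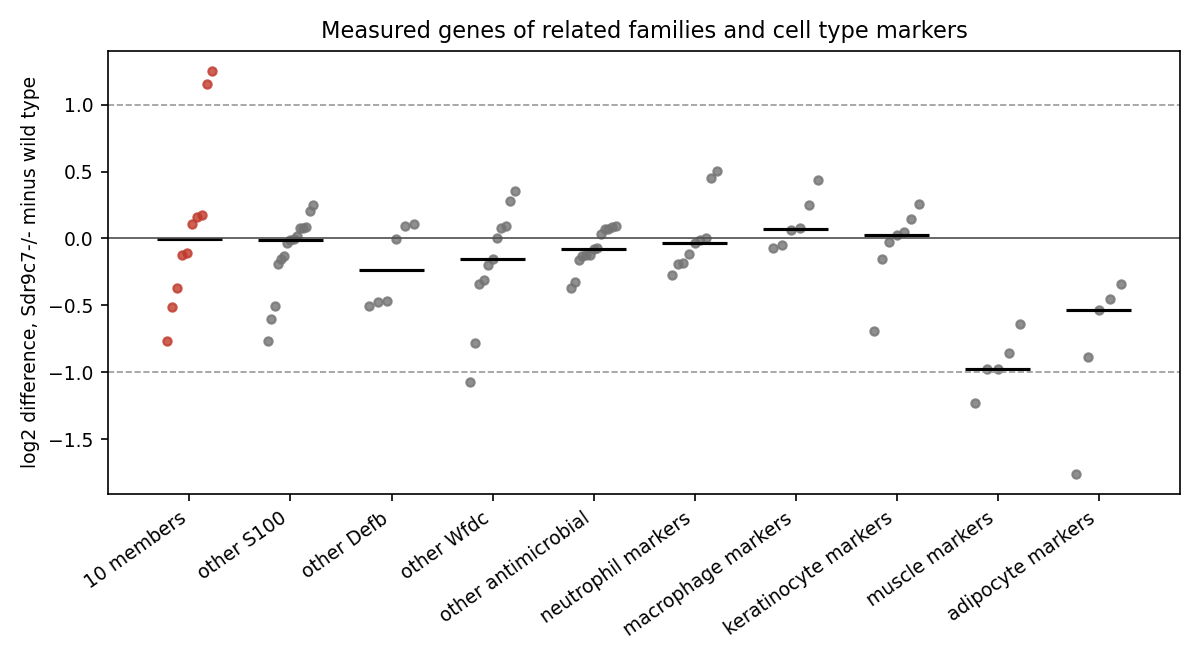
Log2 difference, Sdr9c7-/- minus wild type (vertical), of each measured gene in the 10 alarmin and antimicrobial genes (red), their related families and the cell type marker lists (grey), with a bar at each median and dashed lines at 2-fold. The other S100 genes centre on −0.01 and keratinocyte markers on 0.03, while muscle markers centre on −0.97 and adipocyte markers on −0.53.

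Further antimicrobial genes lay close to 0. Of 20 listed, 19 were on the array and 13 were measured, with a median of −0.08 and none 2-fold apart. The highest were the galactose-binding lectin Lgals3 at 0.09 and lysozyme Lyz1 at 0.09. The lowest were the alarmin cytokines Il33 at −0.37 and Il18 at −0.33. Il33, which is released from damaged barrier cells, had 0.0934 in the knockout and 0.121 in the wild type.

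Receptors through which these proteins act were likewise within 2-fold. Of 13 on the list 12 were measured, with a median of −0.03. Fpr2, a receptor for cathelicidin peptides, was highest at 0.61, with a dim 0.0177 in the knockout and 0.0116 in the wild type, and Tlr4, a receptor for calprotectin, was at 0.34. The lowest were the scavenger receptor Cd36 at −0.60, also a gene of fat cells, and Ager, the receptor for advanced glycation end products that also binds S100 proteins, at −0.35.

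Of 26 cytokines, cytokine receptors and transcription factors known to control such genes, 24 were measured, with a median of −0.09, 1 at least 2-fold higher and 1 at least 2-fold lower. Tnf, which encodes tumour necrosis factor, was the higher one, at 1.18. It had 10 spots on each array, with processed intensities from 84.5 to 98.6 in the knockout and from 33.9 to 40.9 in the wild type. The spots of the arrays did not overlap, and their differences had an SD of 0.067. After normexp with the offset of 50 the Tnf difference was 0.49, with an offset of 0 it was 0.93, and with 50 added to the processed intensity alone it was 0.58. The Tnf difference was thus repeatable between spots of 1 slide, while its size moved with the offset more than with normexp itself.

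Il1a, interleukin-1 alpha, was the lower one at −1.43, with 0.0114 in the knockout and 0.0308 in the wild type, and −0.64 after normexp. Nfkbiz, the nuclear NF-kappaB cofactor that drives Lcn2 and defensin genes downstream of interleukin-17, was at 0.77 with 0.183 in the knockout and 0.107 in the wild type. Cebpd, a C/EBP family transcription factor, was at −0.70 with 4.26 in the knockout and 6.90 in the wild type. The interleukin-22 receptor chain Il22ra1 was level at −0.01 and the interleukin-17 receptor chain Il17ra was at −0.23, both named after their values were seen. Il17a was not well above background on either array.

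The 250 bases before the transcription start were searched for 3 motifs on both strands, and are shown for both genes past 2-fold and for the calgranulin pair, which was not. The promoters are from RefSeq on GRCm38.p6, and 9 of the 10 genes had an entry. The C/EBP motif was searched as TTGCNNAA, the AP-1 motif as TGANTCA and the TATA box as TATAAA, with N for any base. Matches are in capitals.
Slpi (GRCm38.p6 chr2:164356508-164356757, minus strand): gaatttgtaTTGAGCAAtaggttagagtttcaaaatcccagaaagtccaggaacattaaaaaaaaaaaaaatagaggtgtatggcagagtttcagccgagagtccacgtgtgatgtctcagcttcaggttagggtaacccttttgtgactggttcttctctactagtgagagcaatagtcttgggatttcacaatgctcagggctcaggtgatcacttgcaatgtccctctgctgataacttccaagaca
Defb6 (GRCm38.p6 chr8:19225228-19225477, plus strand): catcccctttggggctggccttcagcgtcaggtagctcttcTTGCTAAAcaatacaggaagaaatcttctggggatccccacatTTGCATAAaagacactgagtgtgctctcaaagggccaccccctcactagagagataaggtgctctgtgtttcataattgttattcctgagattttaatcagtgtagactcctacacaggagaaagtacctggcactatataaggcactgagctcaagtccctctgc
S100a8 (GRCm38.p6 chr3:90668821-90669070, plus strand): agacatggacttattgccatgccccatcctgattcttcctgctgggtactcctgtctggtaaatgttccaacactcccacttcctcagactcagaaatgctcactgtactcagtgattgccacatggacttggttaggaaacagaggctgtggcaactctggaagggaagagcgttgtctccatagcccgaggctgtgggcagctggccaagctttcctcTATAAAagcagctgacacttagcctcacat
S100a9 (GRCm38.p6 chr3:90695722-90695971, minus strand): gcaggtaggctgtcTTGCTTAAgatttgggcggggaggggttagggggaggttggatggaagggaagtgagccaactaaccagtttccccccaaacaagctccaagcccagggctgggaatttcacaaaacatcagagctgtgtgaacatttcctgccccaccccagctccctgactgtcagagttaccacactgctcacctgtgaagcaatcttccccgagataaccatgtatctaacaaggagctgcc

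The C/EBP letters stood in 6 of the 9 promoters, those of Slpi, Wfdc12, Defb6, Ltf, Lcn2 and S100a9, against 9.56% of 32851 RefSeq promoter windows of this length. The match began 241 bases before the start in Slpi, 236 in S100a9, and 209 and 166 in Defb6. The AP-1 letters stood in none of the 9 and in 6.75% of all windows. The TATA box letters stood in S100a8 alone, 30 bases before its start, and in 12.4% of all windows. Only the exact letters TATAAA were counted, so a promoter without them may hold another form of the box. Genes with the C/EBP letters included both that were 2-fold higher and 4 that were not. A match of these letters is not a bound site, and binding was not measured here.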

How the data were processed

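Per the file headers, the authors' scanner files hold the processed intensity of 44397 spots per array from Agilent Feature Extraction 11.5.1.1, with its spatial and multiplicative detrending switched on. They also hold raw spot means, local background, error estimates and quality flags. A spot is well above background when it exceeds 13 times a background SD. In the deposited series matrix each value is a ratio, namely the processed intensity over the array's 75th percentile in the file header (2080.45 knockout, 1905.63 wild type), with no gene centring and a median of 0.0840 and 0.0855.

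Control spots and 192 outlier spots were left out. Intensities were taken to log2, spots of a probe averaged, and the 75th percentile over 39417 probes subtracted. A gene was the mean over its unsaturated probes that were well above background on each array. Probes were named through RefSeq accession (28325), symbol (2204), synonym (174) or the file's name (8714). Where a gene was above background on a single array, its bound was set against the dim array, at the probe's signal there or at that array's lowest well-above-background signal (0.00427 knockout, 0.00563 wild type), whichever was higher. Such a bound takes no account of spot error. Named genes are the 10 members, Sdr9c7, the 2 highest and lowest of each list and those past 2-fold, other names being marked or nearest neighbours. Members, lists, thresholds and neighbour windows were chosen with earlier results of these data known. Precision is limited by 1 array per genotype. Scripts were tested on simulated data. Tools were R 4.3.3 with limma 3.58.1, and Python 3.11.15.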

Additional observations from a re-analysis of the deposited data

How the results depend on the processing

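The values were recomputed under 9 other settings and 2 added after seeing the data, as were the limits that define the block and rows. Slpi and Defb6 were the 2 genes at least 2-fold higher under median scaling, percentile scaling over detected probes, quantile and loess normalization, the series matrix values, the brightest probe per gene and no filter on dim probes. Under normexp (offset 50) the count was 0, with Slpi at 0.86, Defb6 at 0.29, Ltf at −0.07 and the median of the 10 at −0.07. In the added settings it was 1 under normexp with an offset of 0 (Slpi 1.1, Defb6 0.77), and 0 with 50 added to the processed intensity alone (Slpi 0.86, Defb6 0.43, Ltf 0.01), so the offset by itself ended the Slpi call. Without the damaged block and the 96 of 532 rows where dim spots scattered at least 1.5 times as often as over the whole array, 7 of the 10 remained, 1 of them at least 2-fold higher, with a median of −0.11; Defb6, Ltf and Lcn2 then had no value. No setting put a gene of the 10 at least 2-fold lower. Across all genes, 120 higher and 308 lower became 33 and 103 under normexp, 68 and 223 with its offset at 0, 38 and 107 with 50 added alone, 814 and 978 with no filter, and 72 and 198 without block and rows. Scalings moved the median of all genes to between −0.04 and 0.01. The other S100 genes' median ranged from −0.10 (normexp) to 0.03 (median scaling). The slide could not serve as a block, since both arrays share it. No paired analysis was possible because each genotype had 1 array. Dim signal limits Defb6 and Ltf most.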
